A study of Equus asinus with 3 samples.

Results

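The ADAM and ADAMTS families were followed by name through single-cell transcriptomes of donkey (Equus asinus) testis, epididymis caput and epididymis corpus. Every feature named ADAM and then a digit, or beginning with ADAMTS, was taken. This gave 38 members of 34267 features, of which 14 were ADAM, 19 ADAMTS and 5 ADAMTS-like (ADAMTSL) genes, and all 38 were features of each library. A RefSeq table of a donkey assembly (EquAss-T2T_v2), used for names and gene order only, held all 38 under the same symbols. It also named 2 features that the files give as locus identifiers, LOC106828896 as ADAM2 and LOC106831729 as ADAM29, which the rule on names left out. The tissue came from 3 sexually mature male donkeys, with no treatment or genotype given. There was 1 library per tissue, and which animals went into each is not stated in the labels. The labels call the testis cells germ cells and both epididymal libraries somatic cells, and no sort is described.

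ADAM proteins are membrane-anchored, with a metalloprotease domain and a disintegrin domain, and the active ones cut growth factors, cytokines and adhesion molecules from the cell surface. Others have lost the active site and serve in adhesion, among them several on the sperm surface that are needed for sperm to reach and bind the egg in the mouse. ADAMTS proteins are secreted proteases with thrombospondin repeats that trim collagens and proteoglycans of the matrix, and the ADAMTSL proteins share the repeats but lack the protease domain. In the epididymis, where sperm mature, the luminal epithelium secretes proteins that attach to passing sperm, and ADAM7 is one of these in the mouse.

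The libraries held 47686179 UMIs in testis, 13203203 in caput and 4142512 in corpus, where a UMI stands for 1 captured transcript molecule. Kept cells numbered 8610 in testis, 9478 in caput and 9609 in corpus, with a median of 4714 UMIs in testis, 1145 in caput and 371 in corpus. Levels are given as CPM, the UMIs of a gene for every 1000000 UMIs of the library or class. CPM is not divided by transcript length, so levels of different genes are compared only on that scale. With 1 library per tissue no difference has a replicate check and no p-value was computed. All intervals are 95% intervals, and counting error is the only error they cover. Germ-like cells, named by markers, were 88.9% of testis cells (exact interval 88.2 to 89.5%) and 2.75% of caput cells (2.43 to 3.10%). Luminal epithelial-like cells were 24.6% of caput cells (23.7 to 25.5%) and 1.84% of corpus cells (1.58 to 2.13%). Fibroblast-like cells made up 4.61% of the caput library and 18.9% of the corpus library. Barcodes of the largest group (49.9% in caput, 64.1% in corpus) were left without a cell type: they were led by very long genes and are called the long-gene barcodes here. In caput 5 of 12 endothelial markers were raised in this group, enough for a name, but the rule on very long genes took precedence. In corpus the group matched no marker list. A list of 36 very long genes took 2.59% of UMIs in the long-gene barcodes of caput, where ribosomal protein genes took 2.81%. In corpus those shares were 2.5% and 1.03%. The cluster names rest on marker lists, and no doublets could be removed.

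Across whole libraries ADAM30 was the member with the largest share of UMIs in testis, ADAM7 the one with the largest share in caput and in corpus, and most members took a larger share of the UMIs in both epididymal libraries than in testis. All members together had 21498 UMIs in testis (450.8 CPM), 44479 in caput (3369 CPM) and 11437 in corpus (2761 CPM). The 3 members with the most UMIs held 66.3% of them in testis (ADAM30, ADAMTS6 and ADAM17), 52.5% in caput (ADAM7, ADAMTSL3 and ADAMTSL1) and 21.2% in corpus (ADAM7, ADAMTSL3 and ADAMTSL1). No member was at 0 in any library, and 27 members in testis, 31 in caput and 27 in corpus reached 50 UMIs.

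**Figure D1:**
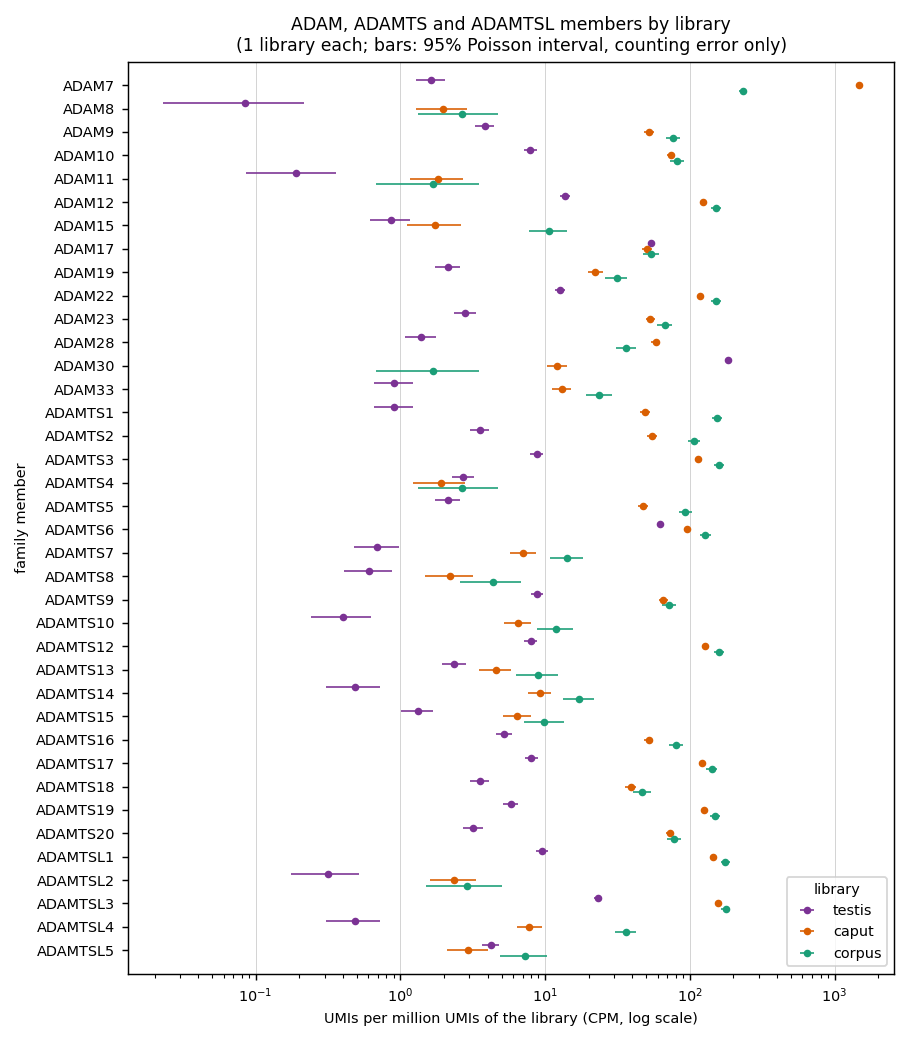
Level of each of the 38 members (rows) in testis, caput and corpus, as CPM on a log axis, with 95% Poisson intervals as bars (1 library each). ADAM30 is the member with the most CPM in testis, ADAM7 stands apart at 1469 CPM in caput, and ADAM17 lies between 50.5 and 54.1 CPM in every library.

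A member was listed as higher or lower between libraries when the whole interval of its CPM ratio lay beyond 4-fold and its higher side held 50 UMIs or more. In testis over caput, 1 of 33 members that could be listed was higher (9.82% of all features tested were) and 26 were lower (43.9% of all features tested). In testis over corpus, 1 of 29 was higher (14% of all features) and 25 were lower (39%). The median log2 ratio of the members was −3.46 in testis over caput, beside −1.69 over all features, and −4.17 in testis over corpus, beside −1.34 over all features. Scaling by the total moved most features to one side: over features with at least 50 UMIs in both libraries the median log2 ratio was −1.15 in testis over caput and −1.94 in testis over corpus. Relative to that median, 18 members were still listed as lower in testis than in caput (28.9% of all features) and 16 as lower than in corpus (16.5%). With the long-gene barcodes left out of all libraries, a setting added after the data were seen, 22 of 27 members were lower in testis than in caput (33.9% of all features) and 19 of 24 lower than in corpus (24.5%). In bulk sums such as these, fewer cells of a type and less RNA per cell cannot be told apart.

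ADAM30, a gene transcribed in the testis in humans, had 182.6 CPM in testis (interval 178.8 to 186.5), 12.0 CPM in caput and 1.69 CPM in corpus. It was the member listed as higher in testis, 15.2-fold over caput (13.0 to 17.9) and 108-fold over corpus (52.4 to 269), where it had only 7 UMIs. ADAM7 went the other way, with 1.61 CPM in testis, 1469 CPM in caput and 232 CPM in corpus. Its ratio was 0.00110 in testis over caput (0.000867 to 0.00137) and 6.33 in caput over corpus (5.93 to 6.76). In caput over corpus ADAM7 was the 1 member of 28 listed as higher (2.27% of all features), and 0 were listed as lower (0.276% of all features). Among cells with at least 500 genes, which keeps only 10.5% of corpus cells, the log2 ratio of ADAM7 in caput over corpus was 1.06 instead of 2.66 and ADAM7 was not listed.

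ADAM17, the sheddase that releases tumour necrosis factor from the cell surface, was the member with the most even level. It had 53.7 CPM in testis, 50.5 CPM in caput and 54.1 CPM in corpus, with a ratio of 1.06 in testis over caput (0.976 to 1.16) and 0.993 in testis over corpus (0.866 to 1.14). Set beside the median features above, its ratios lie above the median feature. ADAM10, the other broad sheddase, was at 7.91 CPM in testis, 74.4 CPM in caput and 81.8 CPM in corpus and was listed as lower in testis. ADAMTS6, which acts on fibrillin microfibrils, had 62.4 CPM in testis, 95.9 CPM in caput and 128.0 CPM in corpus and was listed in no pair of libraries. ADAMTS4, ADAMTS13, ADAMTS15 and ADAMTSL5, all under 10 CPM in each library, were not listed between testis and caput either. ADAMTS4 had 2.73 CPM in testis, 1.89 CPM in caput and 2.66 CPM in corpus, and ADAMTS13, which cleaves von Willebrand factor, had 2.35 CPM in testis, 4.54 CPM in caput and 8.93 CPM in corpus. ADAMTS15 had 1.32 CPM in testis, 6.44 CPM in caput and 9.90 CPM in corpus, and ADAMTSL5 had 4.22 CPM in testis, 2.95 CPM in caput and 7.24 CPM in corpus. ADAM8, ADAM11, ADAM15, ADAMTS8 and ADAMTSL2 had under 50 UMIs in both testis and caput and could not be listed there. ADAM15 reached 10.6 CPM in corpus (44 UMIs), beside 0.860 CPM in testis and 1.74 CPM in caput. ADAM8, known from leukocytes, had 0.0839 CPM in testis, 1.97 CPM in caput and 2.66 CPM in corpus. ADAM11 had 0.189 CPM in testis, 1.82 CPM in caput and 1.69 CPM in corpus, ADAMTS8 0.608, 2.20 and 4.35 CPM in the same order, and ADAMTSL2 0.315, 2.35 and 2.90 CPM.

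The members lower in testis ran from ADAM7 to ADAMTSL3, whose ratio in testis over caput was 0.148 (0.138 to 0.16). They held the procollagen-processing enzymes ADAMTS2, ADAMTS3 and ADAMTS14, the proteoglycan-cleaving ADAMTS1, ADAMTS5, ADAMTS9 and ADAMTS20, and ADAM22 and ADAM23, which bind LGI proteins and are not active proteases. ADAMTS1 had 0.902 CPM in testis, 49.2 CPM in caput and 154 CPM in corpus, a ratio of 0.0183 in testis over caput (0.0131 to 0.0250) and 0.00585 in testis over corpus (0.00419 to 0.00798). ADAM22 had 12.7 CPM in testis, 117 CPM in caput and 151 CPM in corpus. ADAMTS19 had 5.77 CPM in testis, 125 CPM in caput and 150 CPM in corpus. ADAMTS2, ADAMTS3 and ADAMTS14 had 3.52, 8.72 and 0.482 CPM in testis, 54.9, 115 and 9.16 CPM in caput, and 107, 160 and 17.1 CPM in corpus. ADAMTS5 had 2.12 CPM in testis, 47.3 CPM in caput and 93.2 CPM in corpus. ADAMTS9 had 8.85 CPM in testis, 65.7 CPM in caput and 72.2 CPM in corpus, and ADAMTS20 had 3.19 CPM in testis, 72.9 CPM in caput and 77.7 CPM in corpus. Every one of these was lower in testis than in either epididymal library by the 4-fold rule.

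The rest of the lower members fell into the same range. ADAMTS7 and ADAMTS12, a pair that cleaves the cartilage protein COMP, had 0.692 and 7.93 CPM in testis, 7.04 and 127 CPM in caput, and 14.2 and 160 CPM in corpus. ADAM12 and ADAM19, the meltrins, had 13.7 and 2.14 CPM in testis, 123 and 22.3 CPM in caput, and 153 and 31.1 CPM in corpus. ADAM9, another broadly transcribed sheddase, had 3.84 CPM in testis, 52.4 CPM in caput and 76.5 CPM in corpus. ADAM23 had 2.81 CPM in testis, 53.4 CPM in caput and 67.1 CPM in corpus. ADAM28 and ADAM33 had 1.38 and 0.902 CPM in testis, 58.0 and 13.1 CPM in caput, and 36.5 and 23.7 CPM in corpus. ADAMTS16, ADAMTS17 and ADAMTS18 had 5.20, 8.03 and 3.52 CPM in testis, 51.9, 122 and 38.9 CPM in caput, and 80.6, 141.5 and 47.1 CPM in corpus. ADAMTS10 had 0.398 CPM in testis, 6.51 CPM in caput and 11.8 CPM in corpus. ADAMTSL1, ADAMTSL3 and ADAMTSL4 had 9.48, 23.2 and 0.482 CPM in testis, 145, 156 and 7.8 CPM in caput, and 176, 177 and 36.0 CPM in corpus.

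Between caput and corpus most members lay close to each other: the ratio in caput over corpus was 0.779 for ADAM22 (0.709 to 0.856), 0.834 for ADAMTS19 (0.760 to 0.916) and 0.884 for ADAMTSL3 (0.812 to 0.963). ADAMTSL4 and ADAMTS1 had the smallest ratios in caput over corpus among members that could be listed, at 0.217 (0.167 to 0.281) and 0.319 (0.286 to 0.357).

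In testis the members with most UMIs in germ-like cells were ADAM30, ADAMTS6 and ADAM17, and they followed different courses across the germ stages. In all germ-like cells ADAM30 had 182 CPM, ADAMTS6 63.9 CPM, ADAM17 53.1 CPM, ADAMTSL3 22.3 CPM, ADAM12 12.9 CPM and ADAM22 12.2 CPM. ADAMTSL1, ADAMTS9, ADAMTS3 and ADAMTS17 had 8.55, 8.25, 7.90 and 7.11 CPM there. No member was higher in germ-like cells than in the rest of the library by the 2-fold rule used within libraries (the whole interval beyond 2-fold, and a library total of 50 UMIs or more), 0 of 27, beside 0.169% of all features. Lower in germ-like cells were 6 of 27 (8.74% of all features). ADAM19 was one of them, with 1.35 CPM in germ-like cells and 9.46 CPM in the rest, and ADAMTS2 another, with 2.63 CPM in germ-like cells and 11.8 CPM in the rest. The others were ADAM23, ADAMTS18, ADAMTS19 and ADAMTS20. With the long-gene barcodes left out of the rest, an alternative added after the data were seen, 2 of the 6 remained, ADAM19 and ADAMTS2, and these 2 of 27 members stood beside 6.33% of all features. The rest of testis also carried germ transcripts: ADAM30 was at 234 CPM in the long-gene barcodes and 169 CPM in clusters of mixed markers.

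Among the named stages ADAM30 was highest in late spermatocyte-like cells. That name is weakly based: most of the class is cluster 0 (1226 cells), with 3 of 15 markers raised, the fewest that gave a name. Cluster 7, the other part of the class, had 6 of 15, and 3174 germ-like cells had no stage name. ADAM30 had 243 CPM in late spermatocytes (2625 UMIs), 129 CPM in round spermatids and 73.3 CPM in elongating spermatids. The ratio of elongating spermatids over late spermatocytes was 0.302 (0.264 to 0.344), and elongating cluster 13, in which the markers of that stage were highest on average, had 32.1 CPM (13 UMIs). ADAM30 was found in 70.9% of late spermatocytes, 46.5% of round spermatids and 31.9% of elongating spermatids. After each cell was thinned to 300 UMIs these shares were 6.94%, 3.57% and 2.55%, with 4.53% in the clusters of mixed markers. The germ-like clusters with no stage name had 205 CPM of ADAM30.

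ADAMTS6 ran the opposite way. It had 16.8 CPM in late spermatocytes, 130 CPM in round spermatids and 147 CPM in elongating spermatids, a ratio of 7.70 in round spermatids over late spermatocytes (6.60 to 9.02) and 8.73 in elongating spermatids over late spermatocytes (7.35 to 10.4). Among the single clusters it was highest in elongating cluster 10 (188 CPM) and lower in elongating cluster 13 (39.5 CPM, 16 UMIs). Thinned to 300 UMIs per cell, it was found in 0.415% of late spermatocytes, 3.84% of round spermatids and 3.83% of elongating spermatids, beside 9.54%, 47.9% and 48.1% without thinning.

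Along the stages, members were listed when all of the interval was past 2-fold and the higher stage held 50 UMIs or more. In round spermatids over late spermatocytes 4 of 18 members were higher (32.9% of all features) and 1 was lower (12.8%). The 4 were ADAMTS6, ADAM22 with 21.4 CPM in round spermatids and 3.98 CPM in late spermatocytes, ADAM12 with 18.8 and 6.29 CPM in the same stages, and ADAMTS16 with 6.63 and 1.85 CPM. ADAMTS4, one of the aggrecan-cleaving enzymes, was the lower one, with 0.468 CPM in round spermatids and 5.37 CPM in late spermatocytes (6 and 58 UMIs). In elongating over round spermatids 0 of 11 members were higher and 0 were lower (8.66% and 2.84% of all features). In elongating spermatids over late spermatocytes 4 of 10 were higher (30.5% of all features) and 3 were lower (23.1%). The higher ones had in elongating spermatids 147 CPM (ADAMTS6), 31.0 CPM (ADAM22), 29.8 CPM (ADAM12) and 16.4 CPM (ADAMTS16). The lower ones were ADAM30, ADAMTSL5 with 0.893 CPM in elongating spermatids and 7.4 CPM in late spermatocytes, and ADAMTS4, with 0 UMIs in elongating spermatids. A count of 0 allows up to 0.893 CPM there (3 UMIs over the class), and at that level ADAMTS4 would be 6.01-fold lower than in late spermatocytes. The interval of its ratio, which counts the error of both stages, ran up to 0.211. ADAM17 had 61.4 CPM in late spermatocytes, 42.4 CPM in round spermatids and 34.3 CPM in elongating spermatids and was not listed at any step. ADAMTSL3 had 28.5, 24.7 and 31.0 CPM in the same order and was not listed.

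Against the rest of testis, each stage gave a similar picture. In late spermatocytes 0 of 27 members were higher (4.48% of all features) and 3 were lower (27.6%), namely ADAMTS6, ADAM22 and ADAMTS16. In round spermatids ADAMTS6 was the 1 member that was higher (14.6% of all features) and ADAMTS4 the 1 that was lower (7.42%). In elongating spermatids 3 were higher (15.9% of all features), namely ADAMTS6, ADAM22 and ADAMTS16, and 2 were lower (9.18%), ADAM30 and ADAMTS4.

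The features that RefSeq names ADAM2 and ADAM29 were looked up after the members' values had been seen, and both exceeded most members in testis. The ADAM2 locus, whose mouse gene encodes a subunit of fertilin, had 566 CPM in testis, 107 CPM in caput and 76.3 CPM in corpus. Its stages resembled those of ADAM30, with 772 CPM in late spermatocytes, 404 CPM in round spermatids and 151 CPM in elongating spermatids. The ADAM29 locus had 124 CPM in testis, 48.5 CPM in caput and 54.8 CPM in corpus. It had 8.88 CPM in late spermatocytes, 258 CPM in round spermatids and 365 CPM in elongating spermatids, a ratio of 41.1 in elongating spermatids over late spermatocytes (33.3 to 51.1).

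**Figure D2:**
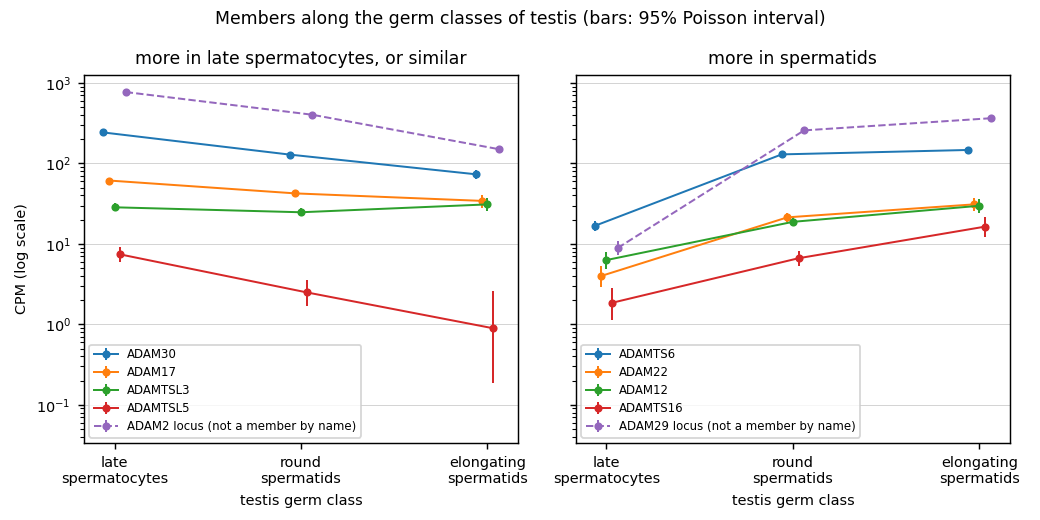
CPM (log axis) of members along the 3 named germ classes of testis, with 95% Poisson intervals and dashed lines for the ADAM2 and ADAM29 loci, which are not members by name. ADAM30 is at 243 CPM in late spermatocytes and 73.3 CPM in elongating spermatids, while ADAMTS6 is at 16.8 CPM in late spermatocytes and 147 CPM in elongating spermatids.

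ADAM30 in the caput library lay mostly in its few germ-like cells, a type outside the somatic label of that library. Of 159 UMIs in caput, 117 fell in the 261 germ-like cells, which gave 149 CPM there and 3.38 CPM in the rest of caput, a ratio of 44.2 (30.8 to 64.4). It was the 1 of 31 members listed as higher in these cells (11.7% of all features), and 16 were lower (13.5%). The cluster with spermatocyte markers (145 cells) had 188 CPM and the elongating cluster (116 cells) 17.0 CPM (3 UMIs). Testis germ-like cells of all stages together had 182 CPM of ADAM30, a ratio of 0.968 to the caput cluster with spermatocyte markers (0.804 to 1.17). The late spermatocytes of testis, named from the same marker list as that cluster, had 243 CPM, and the round spermatids of testis 129 CPM. How near that cluster is in stage to either class was not tested. The spermatocyte cluster of caput also held 201 CPM of ADAM7 and the elongating cluster 1169 CPM, against 1.35 CPM in testis germ-like cells.

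In the epididymis ADAM7 was the member with the most CPM in luminal cells. Luminal epithelial-like cells had 4494 CPM in caput (14622 UMIs) and the rest of caput 479 CPM, a ratio of 9.38 (9.07 to 9.69). In corpus, luminal cells had 5131 CPM (692 UMIs) and the rest 67.1 CPM, a ratio of 76.4 (66.3 to 88.3). ADAM7 was the 1 of 31 members listed as higher in caput luminal cells (5.13% of all features), and it and ADAM33 were the 2 of 27 in corpus luminal cells (4.35%). With the long-gene barcodes left out of the rest of caput, ADAM28 was listed beside ADAM7, 2 of 27 members (3.43% of all features). Within luminal cells ADAM7 had a caput over corpus ratio of 0.876 (0.812 to 0.947), beside 6.33 between the whole libraries. In luminal cells, 0 of 12 members were listed as higher in caput than in corpus and 0 as lower (0.996% and 0.801% of all features).

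ADAM7 transcripts were also found outside the luminal cells, at levels set out here beside luminal secretory genes. In caput, ADAM7 had 490 CPM in T or NK-like cells, 372 CPM in fibroblast-like cells, 299.98 CPM in macrophage-like cells and 450 CPM in long-gene barcodes, which is 10.9%, 8.28%, 6.67% and 10.01% of the luminal level. The elongating spermatid-like cells of caput had more, 1169 CPM (26.0% of the luminal level), as did its clusters of mixed markers, 757 CPM (16.8%). The beta-defensin gene DEFB119 stood in the same classes at 23.4%, 16.2%, 10.2% and 19.0% of its luminal level, and the lipocalin gene LCN6 at 6.34%, 4.27%, 6.03% and 4.63%. In elongating spermatid-like cells and mixed clusters DEFB119 stood at 23.6% and 30.6%, and LCN6 at 31.4% and 16.9%. In corpus those classes had 80.7, 39.7, 56.6 and 75.6 CPM of ADAM7, or 1.57%, 0.773%, 1.1% and 1.47% of the luminal level, beside 1.08%, 0.655%, 0.871% and 0.468% for CD52. PATE1 stood at 0.271%, 0.494%, 0.594% and 0.389% of its corpus luminal level in the same classes, and DEFB129 at 0.349%, 0.338%, 0.29% and 0.294%. Free RNA in the droplets was not tested as their source. ADAM7 was listed as higher in caput than in corpus in the fibroblast-like class (9.38-fold, 6.48 to 14.0), the T or NK-like class (6.07-fold, 4.13 to 9.30) and the long-gene barcodes (5.95-fold, 5.13 to 6.93). It was the only member listed as higher there, 1 of 15, 1 of 4 and 1 of 25 (1.21%, 1.66% and 1.16% of all features). As lower in caput, 0 of 15 members were listed in fibroblast-like cells (0.141% of all features) and 0 of 4 in T or NK-like cells (1.33%). In macrophage-like cells ADAM7 was the 1 member that could be listed, with a ratio of 5.30 (3.26 to 9.08), and was not (2.29% of all features were higher and 1.14% lower). ADAM7 was found in 76.5% of caput luminal cells (median 1162 UMIs) and 27.5% of caput T or NK-like cells (median 1193 UMIs), which is set beside it as a class other than epithelium. Thinned to 300 UMIs per cell the shares were 46.7% and 11.6% in caput. In corpus the thinned share was 69.1% for luminal cells (median 618 UMIs) and 2.74% for the T or NK-like class (median 371 UMIs), beside 79.7% and 3.46% unthinned. Thinning left out 2 luminal cells and 15 T or NK-like cells of corpus, which had fewer UMIs.

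The caput luminal clusters differed in both ADAM7 and ADAM28. ADAM7 had 12847 CPM in cluster 9, 9149 CPM in cluster 5, 2027 CPM in cluster 1 and 1990 CPM in cluster 3. Cluster 9 over cluster 1 was 6.34 (6.06 to 6.63) and cluster 5 over cluster 1 was 4.51 (4.32 to 4.72), while clusters 1 and 3 could not be told apart (1.02, 0.956 to 1.08). ADAM28, first described in lymphocytes, had 628 CPM in cluster 9 (237 UMIs), 23.3 CPM in cluster 5, 27.2 CPM in cluster 1 and 12.9 CPM in cluster 3. Cluster 9 over cluster 5 was 26.9 (15.5 to 51.4). The long-gene barcodes of caput had 58.0 CPM of ADAM28 and T or NK-like cells 23.8 CPM. Clusters 9 and 5 were also rich in LCN6, with 13266 and 5104 CPM, where clusters 1 and 3 had 312 and 159 CPM. The cystatin gene CST11 had 11776 CPM in cluster 9 and 1011 CPM in cluster 5. In the RefSeq gene order ADAM7, ADAMDEC1 and ADAM28 follow each other. In corpus, ADAM7 had 6171 CPM in luminal cluster 5 and 2583 CPM in luminal cluster 6, a ratio of 2.39 (1.93 to 2.98).

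**Figure D3:**
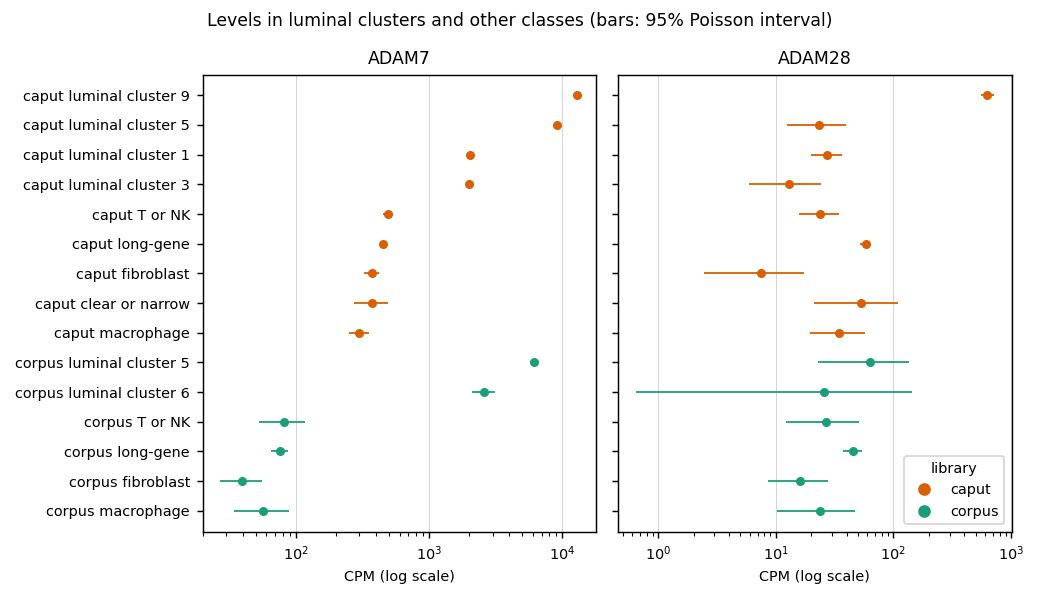
CPM (log axis) of ADAM7 (left) and ADAM28 (right) in the luminal clusters and other classes of caput and corpus, with 95% Poisson intervals. ADAM7 is at 1990 CPM or more in every luminal cluster of both libraries, and ADAM28 stands at 628 CPM in caput cluster 9, apart from all other clusters and classes drawn.

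In caput luminal cells ADAM28 followed ADAM7 with 93.1 CPM, then ADAMTSL3 with 78.1 CPM, ADAMTSL1 with 62.4 CPM, ADAMTS12 with 58.4 CPM, ADAMTS3 with 56.9 CPM, ADAMTS17 with 56.3 CPM, ADAMTS19 with 51.9 CPM, ADAM12 with 51.0 CPM and ADAMTS6 with 46.4 CPM. Lower in caput luminal cells than in the rest were 20 of 31 members (17.5% of all features). When the long-gene barcodes were left out of the rest, an alternative likewise added after the data were seen, 7 of these 20 remained: ADAM19, ADAM30, ADAMTS1, ADAMTS2, ADAMTS5, ADAMTS10 and ADAMTSL4. These were 7 of the 27 members that could be listed under that alternative, beside 12.1% of all features. In corpus luminal cells, which had only 134863 UMIs, 5 of 27 were lower (2.39% of all features), among them ADAM12 with 14.8 CPM in luminal cells (2 UMIs) and 157 CPM in the rest. With the long-gene barcodes left out of the rest, 1 of these 5, ADAMTS5, remained, and 3 of 22 members were lower (3.82% of all features). Among cells with at least 500 genes 0 of 19 were lower (6.51%). The log2 ratio of ADAM12 in corpus luminal cells over the rest was −3.09, and it was −2.33 and −2.42 under these alternatives. ADAM33 was higher, with 89.0 CPM in corpus luminal cells (12 UMIs) and 21.5 CPM in the rest, a ratio of 4.15 (2.06 to 7.62) that was not listed when the long-gene barcodes were left out of the rest. ADAM17, ADAMTS1 and ADAMTS3 had 74.1 CPM each in corpus luminal cells, from 10 UMIs each.

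The secreted members ADAMTS1, ADAMTSL4 and ADAMTS5 and the cell-surface member ADAM33 were listed as higher in fibroblast-like cells of both epididymal libraries. In caput, 6 of 31 members were listed as higher in them than in the rest (4.39% of all features) and 2 as lower (2.35%), and in corpus 4 of 27 were higher (5.27%) and 1 was lower (3.23%). Among corpus cells with at least 500 genes 1 of 19 was higher, ADAMTS1 (4.44% of all features). ADAMTS1, which cleaves versican and aggrecan, had 602 CPM in caput fibroblast-like cells (401 UMIs) and 19.8 CPM in the rest, a ratio of 30.4 (25.9 to 35.8). In corpus it had 450 CPM in fibroblast-like cells and 82.5 CPM in the rest, a ratio of 5.46 (4.65 to 6.4). ADAMTSL4, which binds fibrillin microfibrils, had 90.0 CPM in caput fibroblast-like cells and 3.43 CPM in the rest, a ratio of 26.3 (17.5 to 39.8), and in corpus 107 CPM against 18.9 CPM in the rest, a ratio of 5.64 (4.03 to 7.94). ADAMTS5, a main aggrecan-cleaving enzyme of cartilage, had 285 CPM in caput fibroblast-like cells and 34.7 CPM in the rest (8.22-fold, 6.89 to 9.77), and in corpus 183 CPM against 71.4 CPM in the rest (2.57-fold, 2.08 to 3.17).

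ADAM33 had 57.0 CPM in caput fibroblast-like cells and 10.8 CPM in the rest (5.30-fold, 3.59 to 7.64), and in corpus 62.0 CPM against 14.4 CPM in the rest (4.31-fold, 2.84 to 6.54), where it was not listed with the long-gene barcodes left out of the rest. ADAMTS2, the procollagen N-proteinase, had 213 CPM in caput fibroblast-like cells and 46.5 CPM in the rest (4.58-fold, 3.79 to 5.51). In corpus fibroblast-like cells it had 164 CPM and was not listed. ADAMTS10, another fibrillin-associated member, was listed in caput with 25.5 CPM in fibroblast-like cells (17 UMIs) and 5.50 CPM in the rest, and had under 50 UMIs in corpus. ADAM7 was lower in fibroblast-like cells of both libraries, and ADAM28 in those of caput (log2 ratio −2.88). ADAM28 was no longer listed with 3000 variable genes (−0.66), with the members kept in the clustering (−0.76) or at a Leiden resolution of 0.5 (−0.79). ADAMTSL1 was as high in these cells as ADAMTS2, with 224 CPM in caput and 151 CPM in corpus, and was not listed in either, while the long-gene barcodes had 214 CPM in caput and 209.6 CPM in corpus. With the long-gene barcodes left out of the rest, ADAMTSL1 was listed in caput, where 7 of 27 members were then higher (4.76% of all features). In corpus ADAMTSL1 was not listed under that alternative. ADAMTS12, ADAMTS19, ADAM22 and ADAMTSL3 had 105, 102, 85.5 and 79.5 CPM in caput fibroblast-like cells and 95.4, 102, 84.3 and 78.1 CPM in those of corpus. ADAMTS16 had 51.0 CPM in caput fibroblast-like cells and 105 CPM in those of corpus.

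Between the libraries, fibroblast-like cells were close in these members. The rest of corpus had more CPM of ADAMTS1, ADAMTSL4 and ADAMTS5 than the rest of caput, while ADAM33 differed less. No interval was computed between the rests. In caput over corpus fibroblast-like cells ADAMTS1 had a ratio of 1.34 (1.16 to 1.55), ADAMTS5 1.55 (1.25 to 1.94), ADAMTS2 1.30 (1.02 to 1.66), ADAM33 0.920 (0.587 to 1.43) and ADAMTSL4 0.845 (0.597 to 1.19). In the long-gene barcodes ADAMTS1 had 10.5 CPM in caput and 81.1 CPM in corpus, a ratio of 0.130 (0.0962 to 0.173), the 1 of 25 members listed as lower in caput there (0.706% of all features). In the T or NK-like class ADAMTS1 had 2.65 CPM for caput and 126 CPM for corpus. The matrix gene DCN, decorin, a fibroblast marker, moved with these values: it had 187 CPM in the long-gene barcodes of caput and 7091 CPM in those of corpus, and 169 CPM in caput T or NK-like cells, against 9363 CPM in those of corpus. Its part in the ADAMTS1 levels outside fibroblasts was not tested. In the RefSeq gene order ADAMTS1 and ADAMTS5 are next to each other. In testis a mixed cluster with fibroblast genes and germ transcripts (170 cells) had 46.3 CPM of ADAMTS1, 43.4 CPM of ADAM33, 41.9 CPM of ADAMTS2, 23.1 CPM of ADAMTS5 and 17.3 CPM of ADAMTSL4, where the whole testis library had 0.902, 0.902, 3.52, 2.12 and 0.482 CPM of them.

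**Figure D4:**
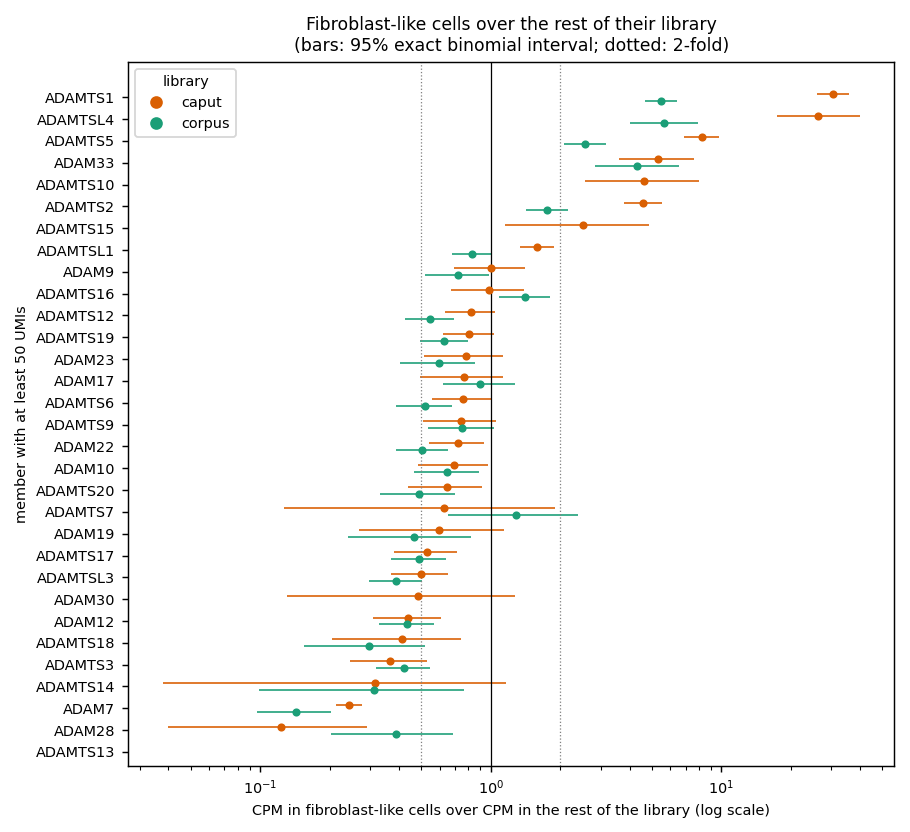
Ratio of CPM in fibroblast-like cells over the rest of the library (log axis), for members with at least 50 UMIs in caput, with 95% exact binomial intervals and corpus values where the member had 50 UMIs there. ADAMTS1 and ADAMTSL4 lie farthest to the right in both libraries, at 30.4 and 26.3 in caput and 5.46 and 5.64 in corpus, and ADAMTS13, with 0 UMIs in caput fibroblast-like cells, has no point.

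Other named classes carried few members of their own. In caput T or NK-like cells ADAM19, an ADAM of the meltrin type, was the 1 of 31 listed as higher (3.37% of all features), with 75.9 CPM (86 UMIs) against 17.2 CPM in the rest, a ratio of 4.40 (3.38 to 5.69). Lower there were 2 of 31 (1.77% of all features), ADAM7 and ADAMTS1. In corpus T or NK-like cells ADAM19 had 74.8 CPM, and 0 of 27 members were listed as higher (2.23% of all features) and 1, ADAM7, as lower (0.478%). In the caput class the members with most CPM after ADAM7 were ADAM12 (105 CPM), ADAMTSL3 (98.8 CPM) and ADAMTS19 (97.9 CPM). The members with most CPM in the corpus class were ADAM12 (149.5 CPM), ADAMTSL1 (135 CPM), ADAMTS12 (129 CPM), and ADAMTS1 and ADAMTS19 (126 CPM each), with ADAM7 at 80.7 CPM. In macrophage-like cells 0 of 31 members in caput and 0 of 27 in corpus were listed as higher (4.04% and 4.92% of all features), and 5 and 4 as lower (3.8% and 2.17%). Macrophage-like cells of caput had 85.4 CPM of ADAM10, 80.8 CPM of ADAM22 and 73.8 CPM of ADAMTS19, and those of corpus 86.4 CPM of ADAMTSL1 and 80.5 CPM each of ADAMTS12 and ADAMTS3, with 77.5 CPM each of ADAM12 and ADAM22. In clear or narrow-like cells of caput (95 cells) 0 members were higher (1.95% of all features) and 3 were lower (0.613%), and after ADAM7 the most CPM belonged to ADAMTSL3 (106 CPM, 14 UMIs), ADAMTSL1 (90.8 CPM) and ADAM12 (83.2 CPM).

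Many of the remaining members had their most CPM in the long-gene barcodes, when the clusters of mixed markers and the small clusters were left aside. In that ranking, among members with at least 50 UMIs, these barcodes had the most CPM of 16 members in caput, 15 in corpus and 21 in testis. Fibroblast-like cells had the most of 7 members in caput and 6 in corpus. The same ranking was not made for all features, and it took no account of intervals. In testis ADAM12 had 30.9 CPM in these barcodes and 29.8 CPM in elongating spermatids. ADAMTS2 and ADAMTS5 had 12.5 and 3.56 CPM in them, less than in the mixed testis cluster with fibroblast genes that was left aside. For testis no median over all features was computed for these barcodes. Features in general also leaned to the long-gene barcodes of the epididymis. The median log2 ratio of these barcodes over the rest was 1.24 for members and 0.612 for all features in caput. In corpus it was 0.869 for members and 0.554 for all features. In caput 16 of 31 members were listed as higher in the long-gene barcodes than in the rest (23.2% of all features) and 5 as lower (15.2%), and in corpus 2 of 27 were higher (5.65%) and 4 were lower (12.3%). Among the higher members the most CPM belonged to ADAMTSL3, with 244 CPM in caput long-gene barcodes and 83.6 CPM in the rest (2.92-fold, 2.65 to 3.21), ADAMTSL1, with 214 CPM and 87.7 CPM in the rest, ADAMTS12, with 200.4 CPM and 66.7 CPM in the rest, and ADAM12, with 194 CPM and 64.2 CPM in the rest. In corpus long-gene barcodes ADAMTSL3 had 240 CPM against 79.3 CPM in the rest (3.03-fold, 2.5 to 3.69) and ADAMTS3 209 CPM against 83.6 CPM in the rest (2.5-fold, 2.07 to 3.04). The lower members were ADAM7, ADAM33, ADAMTS1 and ADAMTSL4 in both libraries, with ADAM30 added in caput. Among corpus cells with at least 500 genes 2 of 19 members were higher, ADAM22 and ADAMTSL3 (6.1% of all features). Only ADAM7 was lower there (12.8%). ADAMTS3 was not listed with that filter or at a Leiden resolution of 0.5. All 16 ratios of the higher members in caput lay between 2.36 (ADAM9) and 4.0 (ADAMTS14), and 0 were listed when the whole interval had to lie beyond 4-fold.

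**Figure D5:**
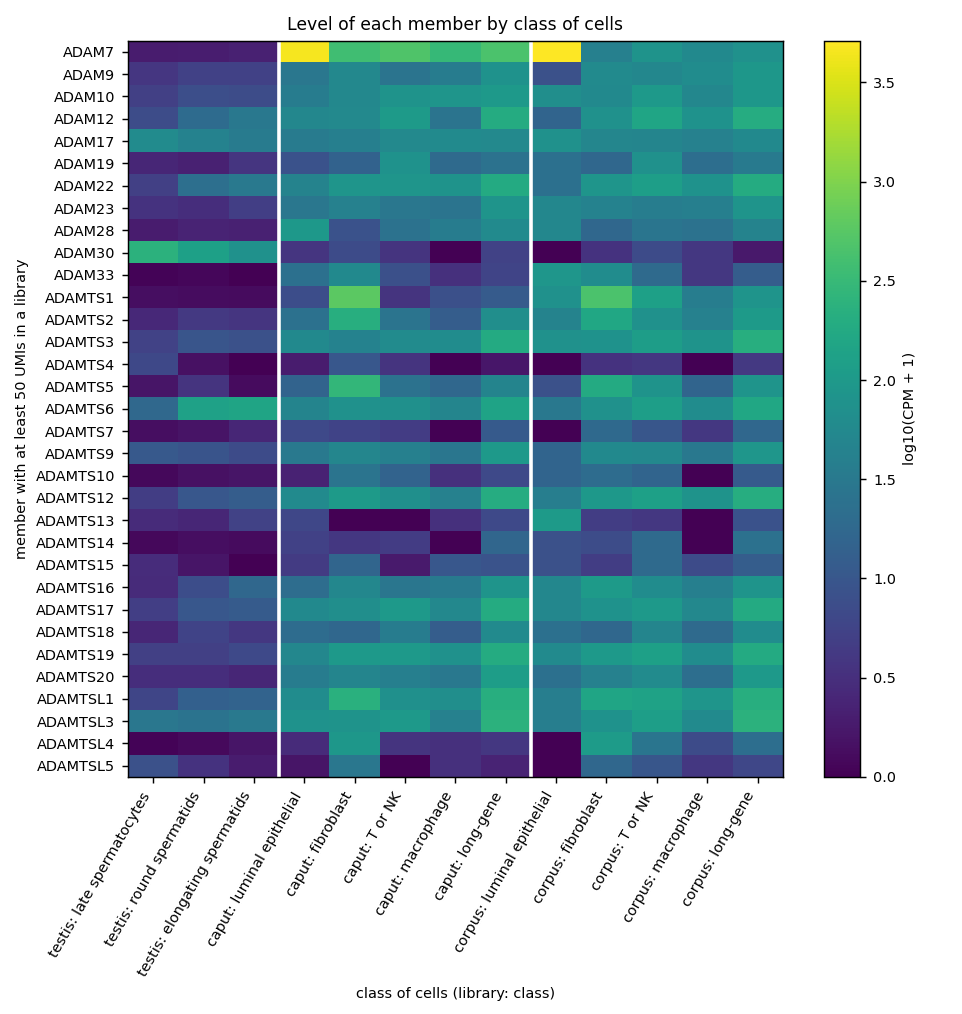
Level of the members with at least 50 UMIs in a library (rows) in the named classes of testis, caput and corpus (columns), coloured by log10 of CPM + 1. ADAM7 is at 4494 and 5131 CPM in the luminal columns of caput and corpus and at 450 CPM in the long-gene column of caput. ADAMTS1 is at 602 and 450 CPM in the fibroblast columns, and ADAMTSL3 at 244 and 240 CPM in the long-gene columns.

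Genes known to work with these families were counted from lists with the 4-fold rule between libraries, beside the shares of all features given above (9.82% higher and 43.9% lower in testis over caput, 14% and 39% in testis over corpus). Of 11 genes found for chaperones and processing of sperm ADAM proteins, 5 were higher and 3 lower in testis over caput, and 6 of 9 were higher and 0 lower in testis over corpus. CLGN, the chaperone calmegin that mouse sperm ADAM proteins need for assembly, had 4884 CPM in testis, 295 CPM in caput and 30.2 CPM in corpus. CMTM2, whose mouse relatives are needed to place ADAM3 on sperm, had 2020 CPM in testis, 95.4 CPM in caput and 14.5 CPM in corpus. CALR3, a testis calreticulin, had 349 CPM in testis, 39.3 CPM in caput and 25.8 CPM in corpus. RNASE10, needed in mouse for ADAM3 processing in the epididymis, had 0.147 CPM in testis, 1427 CPM in caput and 6.28 CPM in corpus. In caput luminal cells it had 4535 CPM and in caput T or NK-like cells 454 CPM. RNASE10 was at 0 UMIs in corpus luminal cells, where ADAM7 had 692.

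Of the proprotein convertases, which remove the inhibitory prodomain of these proteases, 3 of 3 tested were lower in testis than in caput and in corpus. PCSK5 had 12.0 CPM in testis, 224 CPM in caput and 292 CPM in corpus, PCSK6 2.73, 57.6 and 64.0 CPM in the same order, PCSK7 1.99, 11.5 and 13.0 CPM, and FURIN 0.105, 2.27 and 1.93 CPM. Of the inhibitors, 3 of 4 were lower in testis over caput and 4 of 4 in testis over corpus, and 1 was lower in caput over corpus. Within libraries 2 of 4 were higher in caput fibroblast-like cells than in the rest (4.39% of all features) and 3 of 4 in those of corpus (5.27%). TIMP3, the tissue inhibitor with the widest reach over ADAM and ADAMTS enzymes, had 14.4 CPM in testis, 206 CPM in caput and 869 CPM in corpus. In fibroblast-like cells it had 2538 CPM in caput and 2606 CPM in corpus. TIMP2 had 12.0 CPM in testis, 99.1 CPM in caput and 306 CPM in corpus, RECK 14.9, 57.0 and 80.9 CPM in the same order, and TIMP1 1.95, 23.1 and 34.8 CPM.

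The tetraspanin and iRhom partners, which carry ADAM10 and ADAM17 to the surface, had 0 higher and 3 lower of 7 in testis over caput and 0 higher and 1 lower of 4 in testis over corpus. TSPAN5 had 24.7 CPM in testis, 56.1 CPM in caput and 69.3 CPM in corpus, TSPAN15 11.3, 45.3 and 45.9 CPM, TSPAN33 19.3, 19.0 and 12.6 CPM, and TSPAN17 4.84, 15.9 and 10.9 CPM. Of genes for known shed substrates and receptors of shed ligands, 1 was higher and 8 were lower of 12 in testis over caput. AREG, the growth factor amphiregulin released by ADAM17, had 39.4 CPM in testis, 4.92 CPM in caput and 7.24 CPM in corpus. CDH2 had 7.36, 91.0 and 101 CPM in the same order, CD44 20.5, 50.4 and 61.3 CPM, and EGFR 4.01, 80.3 and 111 CPM. Of matrix substrates, 14 of 14 were lower in testis than in caput and 13 of 13 lower than in corpus. In caput fibroblast-like cells 9 of 14 were higher than in the rest (4.39% of all features), and in those of corpus 7 of 13 (5.27%). DCN, COL1A1, COL1A2 and COL3A1 were also among the markers that named the fibroblast-like cells. These counts are therefore not independent of the naming. DCN had 34.9 CPM in testis, 1562 CPM in caput and 13856 CPM in corpus, COL1A2 6.96, 565 and 2063 CPM, COL3A1 20.3, 448 and 1390 CPM, and COL1A1 3.42, 382 and 1215 CPM.

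Of the partners in sperm and egg binding, 3 were higher and 3 lower of 9 in testis over caput, and 7 of 8 were higher in round spermatids than in late spermatocytes (32.9% of all features). IZUMO1, the sperm fusion protein, had 57.3 CPM in testis, 3.41 CPM in caput and 0.483 CPM in corpus. TMEM81, a partner of IZUMO1, had 23.3 CPM in testis, 1.06 CPM in caput and 0.483 CPM in corpus. IZUMO1 had 2.78 CPM in late spermatocytes, 118 CPM in round spermatids and 260.0 CPM in elongating spermatids, higher in the spermatid classes, as were ADAMTS6 and the ADAM29 locus. Of the integrin genes on the list, ITGA9 was at 11.0 CPM in testis, 113 CPM in caput and 139 CPM in corpus, and ITGB1 was at 6.44 CPM in testis, 102 CPM in caput and 140 CPM in corpus.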

How the data were processed

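Single-cell RNA-seq of donkey testis, epididymis caput and epididymis corpus was analysed, with 1 library each and the groups taken from the tissue labels. The cauda was not analysed here. The deposited values are UMI counts per gene and cell, written by PISA 0.12 per the file headers. Per the submitters' processing notes Cell Ranger 2.1.1 was also named, with no role given. The aligner and the genome build are not stated in any source read for this work.

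Cells with at least 200 genes were kept. A doublet caller based on simulated doublets marked 4, 1 and 0 cells in testis, caput and corpus, too few for it to have worked, so no cells were removed and doublets remain. Cell names are serial labels and could not show shared cells. Cells of each library were clustered by the Leiden algorithm (leidenalg 0.10.2, resolution 1, 30 principal components, 2000 variable genes) with the members left out. Clusters were named "-like" from marker lists, by thresholds set after the clusters had been seen, as was the list of very long genes. UMIs were summed per library or class and compared as ratios of CPM with exact conditional binomial intervals (scipy 1.17.1), Poisson intervals for levels and Clopper-Pearson intervals for shares. To compare shares across depths each cell was thinned to 300 UMIs. The ratio rule was run on Poisson counts simulated with known changes, which have only the counting error that the intervals assume. That run could not cover variation between cells, animals or libraries.

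The members and lists were chosen with earlier results of these data known. Named genes were the 10 members with the most CPM in the main classes (4 in other classes), every member listed between libraries, and the 4 genes of each list with the most UMIs. The planned scan of member proteins for the zinc-binding motif was not run, as no protein sequences were used here. Alternative thresholds, scalings, filters and clusterings were tried.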

Additional observations from a re-analysis of the deposited data

How the results depend on the processing

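No paired analysis was possible because each tissue had 1 library and the replicate number is only a name, and for the same reason no library could be left out. Of 1032 repeats of a member's call or value under an alternative, 869 kept direction and side of the rule, 163 kept direction but were no longer listed, and 0 turned round. Some of the 869 could not have failed, because the alternative was laxer than the main rule. These were the 135 repeats with a minimum of 10 UMIs and the 56 in which a 2-fold rule replaced the 4-fold rule. Leaving the germ-like clusters out of caput could not change testis over corpus either. Among repeated counts, 143 stayed within 1.5 times and 19 did not. The 19 hold no count of members lower in a class than in the rest, and some of those counts moved as well. With the long-gene barcodes left out of the rest, the lower members went from 20 to 7 in caput luminal cells (12.1%). They went from 6 to 2 in testis germ-like cells (6.33%). Among cells with at least 500 genes they went from 5 to 0 in corpus luminal cells (6.51%). The share of all features is given in percent beside each. Between libraries, a 2-fold rule gave 2 members higher (7.02%) and 2 lower (1.77%) in caput over corpus (1 and 0 by 4-fold), and scaling by the median ratio gave 16 lower (16.5%) in testis over corpus (25 by the total). Cells with at least 500 genes, only 10.5% of corpus cells, gave 0 higher (1.13%) in caput over corpus (1 without that filter), where the log2 ratio of ADAM7 was 1.06 instead of 2.66. In class over rest, a 4-fold rule gave 3 higher (1.94%) in caput fibroblast-like cells (6 by 2-fold), 0 (0.0335%) in caput long-gene barcodes (16), 1 (1.75%) in corpus luminal cells (2), 2 (0.847%) in corpus fibroblast-like cells (4) and 0 (0.0145%) in corpus long-gene barcodes (2). Cells with at least 500 genes gave 1 (6.23%) in corpus luminal cells (2) and 1 (4.44%) in corpus fibroblast-like cells (4). With long-gene barcodes left out of the rest, added after the data were seen, there were 2 (3.43%) in caput luminal cells (1) and 1 (3.64%) in corpus luminal cells (2). In round spermatids over late spermatocytes, a 4-fold rule gave 1 higher (24%) and 3000 variable genes gave 7 (32.9%), beside 4. In caput over corpus within a class, a minimum of 10 UMIs gave 2 lower (1.02%) for the luminal class and 1 (0.743%) for the T or NK-like class (0 for each). In macrophage-like cells a 2-fold rule (6.65%) and a Leiden resolution of 0.5 (2.39%) each gave 1 higher (0). Causes of these moves were not tested. Depth limits the corpus most: 1 UMI was 0.241 CPM there, against 0.0210 CPM in testis, and its luminal class held 134863 UMIs in all.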
